A study of Mus musculus with 12 samples.

Results

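The 10 genes of lipolysis and the lipid droplet were followed through the tables of both tissues: Pnpla2, Lipe and Mgll, the lipases that act one after the other on stored triglyceride, their regulators Abhd5 and G0s2, the droplet coat proteins Plin1, Plin2, Plin4 and Plin5, and the droplet fusion protein Cidec. They were chosen by name, for their place in lipolysis, with earlier results of these data known. Each table listed 23042 entries. All 10 genes were found in both, in 9 entries, because Plin4 and Plin5 shared a joint entry in each table, so these 2 perilipins cannot be told apart here and are written Plin4/Plin5.

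RNA-seq was carried out on epididymal white adipose tissue (EWAT) and on heart ventricles from WT mice and from MED13cTg mice, which carry a cardiac transgene for MED13, a subunit of the Mediator kinase module. Each tissue had 3 mice of each genotype, with 1 library per mouse and 12 libraries in all. All were male littermates of strain C57BL/6, labelled as 6 weeks old, kept on normal chow and sampled in the late afternoon in the ad libitum fed state. The 4 groups were WT EWAT, MED13cTg EWAT, WT ventricles and MED13cTg ventricles, and the promoter behind the transgene is not given in the sources used here. Values are FPKM, fragments scaled by transcript length and by the mapped fragments of the library, so levels can be compared between genes within a library.

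Fat cells keep triglyceride in lipid droplets. Pnpla2 (ATGL) removes the first fatty acid, Lipe (hormone-sensitive lipase) the next and Mgll (monoacylglycerol lipase) the last. Abhd5 (CGI-58) activates ATGL and G0s2 inhibits it. In fat cells Plin1 holds Abhd5 at the droplet surface until β-adrenergic signalling through protein kinase A releases it, whereas in oxidative tissues such as heart Plin5 covers the droplet and links it to mitochondria. In bulk tissue, fewer cells of a type and less RNA per cell cannot be told apart.

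Many of these genes are known targets of PPARγ or PPARα, which bind as heterodimers with RXR to pairs of the letters AGGTCA spaced by 1 base. RefSeq promoter windows (GRCm38.p6, 250 bases before to 50 after each start) were found for all 10 genes, in 14 windows, and the letters AGGTCA were sought on both strands. They occurred in 4 of the 14 windows, which belong to Plin2, Plin5 and Abhd5, and in 16.3% of the 32851 windows of all genes. The pair AGGTCANAGGTCA, which contains the shorter motif, was in 0 of the 14 windows and in 0.0396% of all. The stretches upstream of the gene start are shown for the 3 genes with the letters and for Plin1, the perilipin that separated the tissues most, without them. Each is read 5′ to 3′ on the strand of its gene and capitals mark AGGTCA or, where the match lies on the other strand, TGACCT.
Plin1, chr7:79732905-79733026, minus strand: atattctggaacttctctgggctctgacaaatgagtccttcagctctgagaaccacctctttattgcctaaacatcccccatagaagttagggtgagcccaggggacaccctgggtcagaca
Plin2, chr4:86670218-86670309, minus strand: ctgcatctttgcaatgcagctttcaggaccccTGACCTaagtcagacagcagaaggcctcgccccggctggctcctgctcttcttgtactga
Plin5, chr17:56117607-56117798, minus strand: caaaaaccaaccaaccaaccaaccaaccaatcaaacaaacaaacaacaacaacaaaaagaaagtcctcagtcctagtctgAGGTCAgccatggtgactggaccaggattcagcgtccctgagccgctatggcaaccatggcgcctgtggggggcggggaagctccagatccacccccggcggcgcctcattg
Abhd5, chr9:122351366-122351615, plus strand: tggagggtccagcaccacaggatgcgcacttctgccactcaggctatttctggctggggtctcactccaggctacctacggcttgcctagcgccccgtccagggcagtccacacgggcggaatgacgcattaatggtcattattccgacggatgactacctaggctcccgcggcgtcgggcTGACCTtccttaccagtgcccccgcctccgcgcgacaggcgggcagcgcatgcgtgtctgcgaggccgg

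The transgene was seen where the labels place it. Med13 in ventricles was 13.1, 10.6 and 11.5 FPKM in WT mice, against 263, 181 and 204 in MED13cTg mice, a log2 difference of 4.08 (SE 0.17, limma adjusted p = 0.00028), and in EWAT the genotypes overlapped (9.43 to 10.9 against 7.84 to 11.03 FPKM). The EWAT libraries differed in makeup before any genotype comparison. The summed level of 13 adipocyte markers, such as Adipoq, Retn and Car3, was 6659, 12220 and 8926 FPKM in WT mice, against 708, 44480 and 7625 in MED13cTg mice. The sum of 18 epididymis markers was 95040 to 121900 FPKM in WT mice, against 15420, 320 and 94500 in MED13cTg mice. For 7 germ cell markers it was 213 to 303 FPKM in WT mice, against 13640, 5.83 and 344 in MED13cTg mice, and for 5 Leydig cell markers 16.0 to 35.7 FPKM in WT mice, against 1388, 25.4 and 22.6 in MED13cTg mice. No marker of these 4 lists was listed at 0 in all 6 libraries, Spinkl was at 0 in MED13cTg replicate 2, and Hsd3b1 was at 0 in WT replicates 2 and 3 and MED13cTg replicate 2. In ventricles the sum of 9 cardiomyocyte markers was 67200 to 95580 FPKM, against 36.7 to 62.0 FPKM in EWAT. Thus EWAT MED13cTg replicate 1 held testis transcripts with few adipocyte transcripts. Replicate 2 was richest in adipocyte transcripts and poorest in epididymis transcripts. Replicate 3 resembled WT, and in it and every WT library the epididymis sum exceeded the adipocyte sum. Every EWAT value is given per library for this reason.

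In EWAT none of the 9 entries passed the test between genotypes. In MED13cTg replicate 2 every one of them was above all WT libraries, in replicate 1 all but Abhd5 were below all WT libraries, and in replicate 3 7 of 9 lay within the WT range. The first enzyme, Pnpla2 (mm9 chr7:148641086-148646642), was 159, 444 and 254 FPKM in WT mice, against 129, 1057 and 218 in MED13cTg mice. Its WT values alone spanned 2.8-fold. The fitted log2 difference was 0.24 (SE 0.87, adjusted p = 0.922).

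Lipe, which also acts on diacylglycerol and cholesteryl esters, was 286, 608 and 461 FPKM in WT mice, against 83.2, 1802 and 366 in MED13cTg mice. The lowest and highest library were both MED13cTg, 21.7-fold apart, with WT between them, and the log2 difference was -0.18 (SE 1.12, adjusted p = 0.955). The mm9 interval that the table gives for Lipe, chr7:26163974-26351436, also carried 4 other entries, so how its fragments were assigned is uncertain. Mgll (mm9 chr6:88674405-88778354), which releases glycerol and also degrades an endocannabinoid in other tissues, was 107, 169 and 145 FPKM in WT mice, against 45.3, 419 and 123 in MED13cTg mice. It had the same layout over a narrower range, 9.25-fold, with a log2 difference of -0.05 (SE 0.81, adjusted p = 0.980).

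Abhd5, the ATGL coactivator (mm9 chr9:122260733-122332297, an interval that 1 other entry shares), was the exception among the members. It was 39.9, 66.3 and 42.4 FPKM in WT mice, against 153, 174 and 41.4 in MED13cTg mice, high in both libraries that were unlike WT and within the WT range in the third. Its log2 difference, 1.08 (SE 0.60, adjusted p = 0.738), was the largest among the members and did not pass the test, and the groups overlapped. Without MED13cTg replicates 1 and 2 it was -0.22 (adjusted p = 0.999, range over the alternatives 0.120 to 1.00), with MED13cTg replicate 3 assumed to vary like WT. Abhd5 was the highest of all 9 entries in MED13cTg replicate 1, the library with the germ cell and Leydig cell transcripts, and ranked eighth or lowest in the other 5. The part of those transcripts in its level was not tested. The ratio of Abhd5 to Pnpla2 was 0.149 to 0.251 in WT and 1.18, 0.164 and 0.190 in MED13cTg.

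G0s2, the ATGL inhibitor (mm9 chr1:195095748-195099382), was 151, 241 and 178 FPKM in WT mice, against 22.3, 908 and 128 in MED13cTg mice. Replicate 3, the MED13cTg library most like WT, lay just under the lowest WT value. The log2 difference was -0.42 (SE 1.30, adjusted p = 0.908). The ratio of the inhibitor to its enzyme, G0s2 to Pnpla2, was 0.950, 0.542 and 0.701 in WT and 0.173, 0.858 and 0.585 in MED13cTg, so the genotypes overlapped in this ratio as well.

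Among the perilipins, Plin1, the main coat protein of the fat cell droplet (mm9 chr7:86865961-86877662), was 79.0, 148 and 113 FPKM in WT mice, against 6.99, 773 and 87.1 in MED13cTg mice. The span of 111-fold over the 6 libraries was the widest among the members, against 1.87-fold within WT, and the log2 difference was -0.44 (SE 1.61, adjusted p = 0.925). Plin4/Plin5 (mm9 chr17:56219079-56256971, an interval also given for Hdgfrp2) was 164, 309 and 260 FPKM in WT mice, against 16.5, 1161 and 161 in MED13cTg mice. It spanned 70.3-fold, and its log2 difference was -0.67 (SE 1.49, adjusted p = 0.870).

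Plin2, a coat protein found in most cell types (mm9 chr4:86294438-86315963), was 26.8, 63.8 and 45.1 FPKM in WT mice, against 25.5, 197 and 41.1 in MED13cTg mice. In replicate 1 it was close to WT replicate 1 while Plin1 was far below, so the ratio of Plin1 to Plin2 was 0.274 there, against 2.32 to 2.95 in WT. The log2 difference of Plin2 was 0.47 (SE 0.81, adjusted p = 0.827). Cidec (mm9 chr6:113374629-113385749), which drives lipid transfer between touching droplets toward the single large droplet of white fat, had the highest level of the members in all 3 WT libraries, with 313, 862 and 623 FPKM, and 32.6, 2174 and 413 FPKM in MED13cTg. Its log2 difference was -0.83 (SE 1.52, adjusted p = 0.840).

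**Figure D1:**
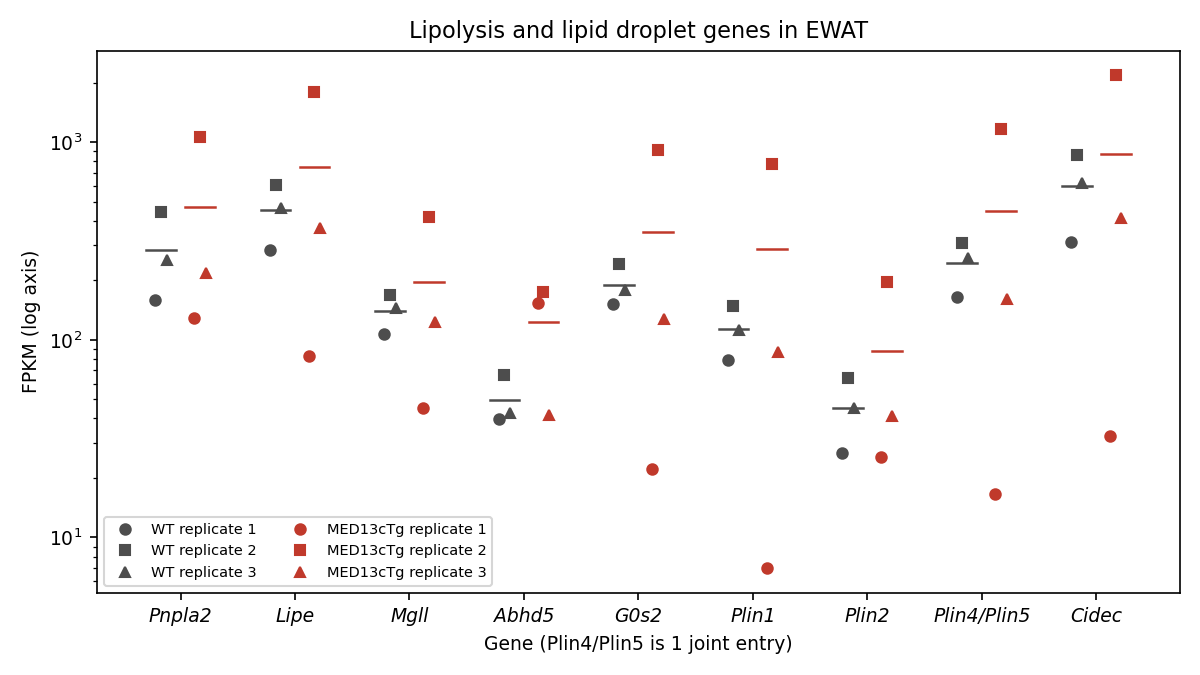
FPKM on a log axis of the 9 entries in each EWAT library (WT grey, MED13cTg red; symbols are replicates, bars are group means). The MED13cTg squares (replicate 2) lie above all other points for each gene, and the red circles (replicate 1) lie lowest except for Abhd5, at 153 FPKM.

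As a group, 0 of 9 entries were called higher (0% of the 14967 entries tested in EWAT) and 0 lower (0.0134% of all tested) by limma at an adjusted p of 0.05. At an unadjusted p of 0.05 the members gave 0 in either direction, against 0.14% higher and 1.11% lower over all. The groups overlapped for every member, whereas 4.88% of all entries had all MED13cTg libraries above all WT and 7.8% had all below. The ratio of group means was above 1 in 9 of 9 entries, whereas the log2 difference was above 0 in 3 of 9. The median log2 difference of the members was -0.18, against 0.01 over all entries tested. Leaving out MED13cTg replicate 1 put 9 of 9 log2 differences above 0, leaving out replicate 2 put 1 of 9 there, and leaving out both put 0 of 9 there, with 0 members called each time.

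The order of the libraries was shared by nearly all members. MED13cTg replicate 2 was highest in 9 of 9 entries, as in 26.2% of all entries tested, and replicate 1 was lowest in 8 of 9, as in 37.2% of all. In WT, replicate 2 was above replicate 3 and replicate 3 above replicate 1 in 9 of 9 entries, an order found in 20.8% of all. The mean log2 level of the adipocyte markers followed the same order, at -0.48, 0.40 and 0.08 in the WT libraries around their mean, and at -3.28, 2.21 and -0.26 in MED13cTg.

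Set against the adipocyte markers within each library, the members spread apart in MED13cTg replicate 1. Abhd5 lay 4.92 above the WT mean on this relative log2 scale, Plin2 2.56, Pnpla2 2.27, Mgll 1.70 and Lipe 0.92, while Plin1 lay at -0.51, Plin4/Plin5 at -0.48 and Cidec at -0.76. The first 5 are lipases, the coactivator and the widely expressed perilipin, and the last 3 include the droplet proteins of white fat cells. G0s2 lay at 0.28. In replicate 2, whose adipocyte markers were highest, the 9 entries ran from -0.62 for Mgll to 0.59 for Plin1, and in replicate 3 from -0.29 for Plin4/Plin5 to 0.21 for Plin2. With the libraries centred on these markers, which moved the median over all entries tested to 0.46, 0 members were called.

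**Figure D2:**
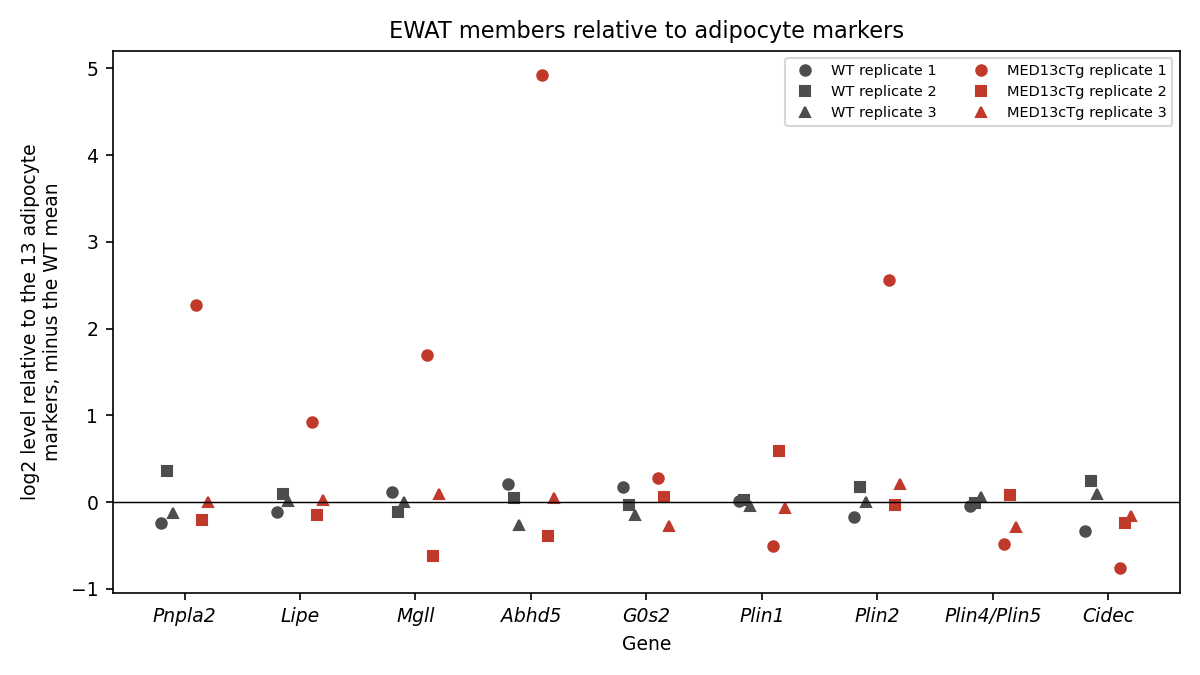
Log2 level of each EWAT entry relative to the mean of 13 adipocyte markers in the same library, minus the WT mean (WT grey, MED13cTg red; symbols are replicates). The red circles (MED13cTg replicate 1) reach 4.92 for Abhd5 and fall to -0.76 for Cidec, while the replicate 3 triangles stay between -0.29 and 0.21.

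In ventricles the members spread less, and none of the 8 entries tested passed the test between genotypes. The lowest MED13cTg mean relative to WT was that of Pnpla2, which was 214, 283 and 252 FPKM in WT mice, against 172, 177 and 233 in MED13cTg mice. MED13cTg replicates 1 and 2 lay below all WT libraries and replicate 3 lay between WT replicates 1 and 3. The ratio of means was 0.776 and the log2 difference -0.37 (SE 0.18, 95% interval -0.79 to 0.05, adjusted p = 0.966).

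The ventricle libraries were split into 2 clusters by rank correlation over the entries tested. The number of clusters was set and not estimated, and the split was not among the planned comparisons. Correlations between libraries ran only from 0.944 to 0.969, and whether the split reflects a batch was not tested. The clusters crossed the genotypes: WT replicate 1 with MED13cTg replicates 1 and 2, and WT replicates 2 and 3 with MED13cTg replicate 3. Pnpla2 was lower in MED13cTg within both clusters, 174 against 214 FPKM in the first and 233 against 268 FPKM in the other. It was the 1 member of 8 tested with every MED13cTg library below every WT library within both, as were 17.4% of all entries tested, and 0 members lay above within both, against 9.74% of all. With the cluster as a covariate, chosen after seeing the data, its log2 difference was -0.24 (SE 0.10, adjusted p = 0.649, range over the alternatives 0.102 to 0.9999). The levels of Pnpla2, Abhd5, G0s2 and Plin4/Plin5 did not overlap between the clusters. The clusters were drawn from these same libraries, and the share of all entries without such overlap was not counted. The split is therefore not read as a trait of the members.

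Lipe in ventricles was 64.7, 66.6 and 50.7 FPKM in WT mice, against 45.3, 53.5 and 61.3 in MED13cTg mice, with a log2 difference of -0.18 (SE 0.16, adjusted p = 0.966). Mgll was 96.5, 83.2 and 74.2 FPKM in WT mice, against 82.3, 87.8 and 75.4 in MED13cTg mice, so the MED13cTg values lay inside the WT range. Its log2 difference was -0.04 (SE 0.14, adjusted p = 0.978). These lipases serve the cardiomyocyte's own small triglyceride store.

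Abhd5 was 26.8, 36.4 and 37.4 FPKM in WT mice, against 29.8, 23.4 and 32.4 in MED13cTg mice. Only MED13cTg replicate 2 fell under the WT range, and the log2 difference was -0.22 (SE 0.18, adjusted p = 0.966). G0s2 was 95.6, 72.6 and 91.9 FPKM in WT mice, against 99.1, 112.5 and 75.1 in MED13cTg mice, with a log2 difference of 0.13 (SE 0.19, adjusted p = 0.966). The ratio of G0s2 to Pnpla2 was 0.448, 0.257 and 0.364 in WT and 0.577, 0.638 and 0.323 in MED13cTg, above WT in replicates 1 and 2 and within its range in replicate 3.

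Plin4/Plin5, the leading perilipin entry of the ventricles, was 302, 328 and 340 FPKM in WT mice, against 246, 256 and 402 in MED13cTg mice. The MED13cTg libraries lay on both sides of WT, and within the library clusters the sign also differed, with log2 differences of -0.27 and 0.27. Its fitted difference was -0.14 (SE 0.21, adjusted p = 0.966). Plin2 was the most even member, with 44.99, 47.9 and 53.9 FPKM in WT mice, against 46.1, 50.5 and 47.8 in MED13cTg mice. The log2 difference was -0.02, and its 95% interval ran from -0.29 to 0.25 (adjusted p = 0.988).

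Cidec and Plin1, the droplet proteins of white fat cells, were the lowest members in ventricles. Cidec was 4.58, 2.82 and 4.56 FPKM in WT mice, against 3.22, 5.74 and 3.29 in MED13cTg mice, with a log2 difference of 0.01 (SE 0.24, adjusted p = 0.996). Plin1 was 0.721, 0.368 and 0.668 FPKM in WT mice, against 0.482, 1.24 and 0.365 in MED13cTg mice, under the filter of a mean of 1 FPKM, so it was not tested. Both were highest in MED13cTg replicate 2, which also held the most Adipoq (10.9 FPKM against 5.57 to 7.66 FPKM in the others) and a sum of 6 atrial markers of 2450 FPKM against 452 to 1165 FPKM. Most of the atrial sum was Nppa, at 892 to 1773 FPKM in MED13cTg ventricles against 368 to 564.5 FPKM in WT ventricles. The other atrial markers, such as Myl7 (321.5 FPKM against 20.9 to 63.5 FPKM), were also highest in MED13cTg replicate 2. The part of fat or atrial tissue in that library was not tested. Of the 13 adipocyte markers, 3 were under 1 FPKM in all 6 ventricle libraries (Lep, Acvr1c and Adrb3). The summed level was 296 to 360 FPKM in WT mice, against 303 to 349 in MED13cTg mice. Most of this sum was Slc2a4 (167 to 198 FPKM) and Thrsp (61.7 to 84.35 FPKM), so it says little about the lower markers. Of those, Cfd, Retn, Car3 and Pparg were highest in MED13cTg replicate 2, as Adipoq was, and Tusc5, Slc7a10 and Cebpa were not.

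**Figure D3:**
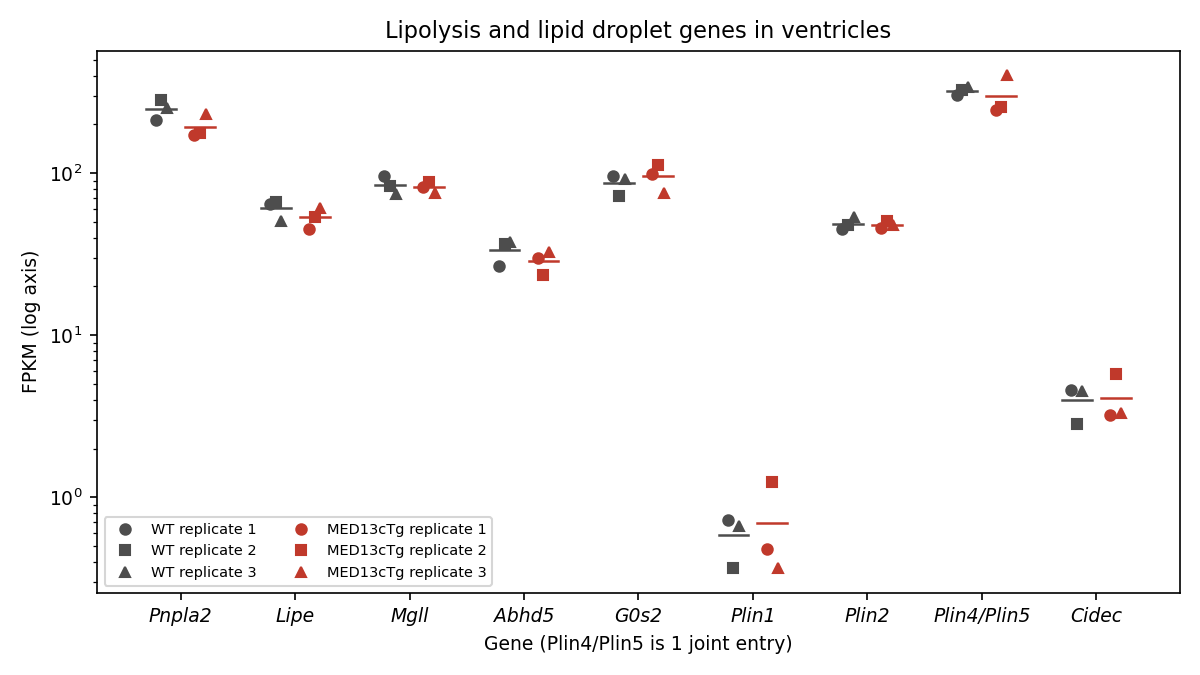
FPKM on a log axis of the 9 entries in each ventricle library (WT grey, MED13cTg red; symbols are replicates, bars are group means). The genotypes overlap for every gene, and Plin1 and Cidec lie far below the rest, at 0.365 to 1.24 and 2.82 to 5.74 FPKM.

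Of the 8 entries tested in ventricles 0 were called higher (0.0238% of the 12589 entries tested) and 0 lower (0.0318%) by limma. Unadjusted p-values under 0.05 numbered 0 among the members, against 1.69% higher and 3.03% lower over all. The genotypes overlapped for every member, while 3.46% of all entries lay wholly above WT and 5.85% wholly below. The median log2 difference was -0.09 over the members and -0.01 over all entries tested. The standard errors of the members were 0.11 to 0.24 in ventricles and 0.60 to 1.61 in EWAT, against medians of 0.15 and 0.45 over all entries.

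**Figure D4:**
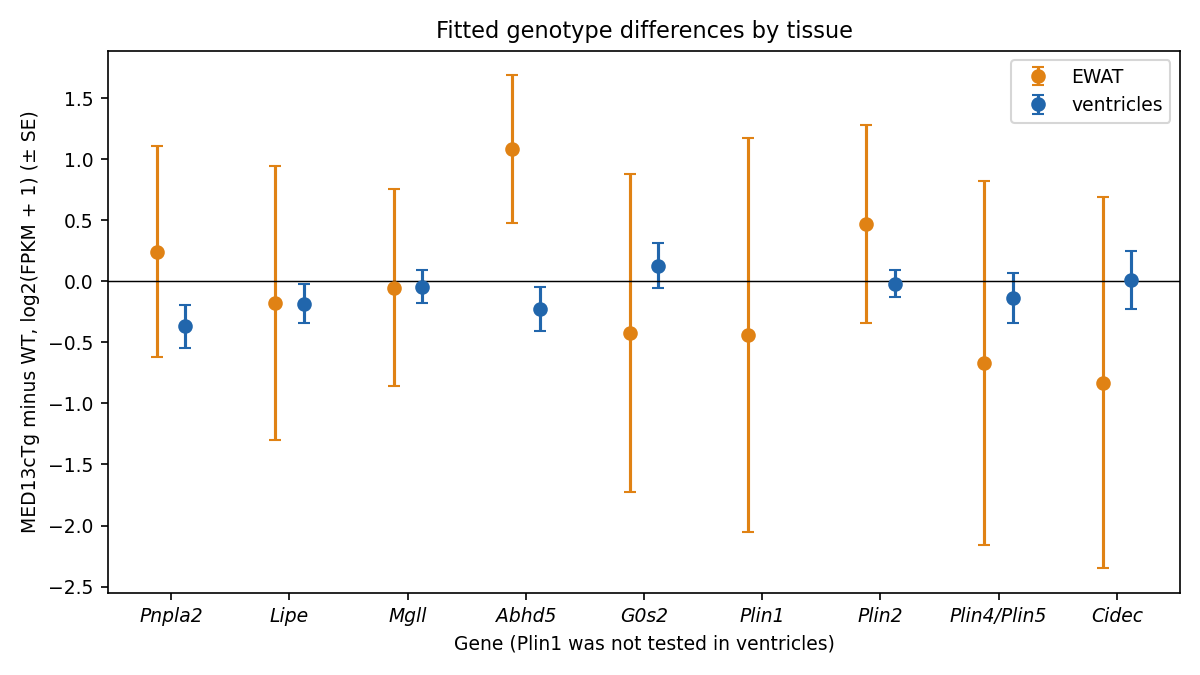
Fitted difference MED13cTg minus WT on log2(FPKM + 1) for each entry (EWAT orange, ventricles blue; bars are standard errors from limma). EWAT bars are several times as long as the ventricle bars, with standard errors of 0.60 to 1.61 against 0.11 to 0.24, and 0 entries passed the test in either tissue.

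The genotype difference was also compared between the tissues, as the EWAT difference minus the ventricle difference. For Abhd5 this was 1.31 (SE 0.66, adjusted p = 0.765), for Pnpla2 0.61 (SE 0.92, adjusted p = 0.852) and for Cidec -0.84 (SE 1.62, adjusted p = 0.887). Of the 8 entries, 0 were called (0.0251% of 11936 entries tested) and 0 had an unadjusted p under 0.05 (3.67% of all). Leaving out MED13cTg EWAT replicate 3, the library most like WT, brought the Abhd5 value to 1.96 (adjusted p = 0.016, range over the alternatives 0.016 to 0.939). That fit set WT against MED13cTg replicates 1 and 2 alone in EWAT and called 143 entries higher and 500 lower, against 0 and 3 with every library.

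The perilipins divided the tissues. The table of each tissue was made separately, so shares within a library are given, as a description. The WT EWAT libraries also held epididymis transcripts, with a marker sum of 95040 to 121900 FPKM against 6659 to 12220 FPKM for adipocyte markers. Their shares are therefore those of a mixed tissue, and the part of epididymis in them was not tested. In WT EWAT, Plin1 made up 25.2% ± 1.00 (SD, n = 3) of the summed perilipin FPKM, Plin2 9.83% ± 1.40, Plin3 10.8% ± 3.27 and Plin4/Plin5 54.2% ± 1.92. Plin3, a coat protein that also sits free in the cytosol, was not a member and was added to complete the family. In WT ventricles, Plin1 was 0.120% ± 0.045 of the sum, Plin2 held 9.86% ± 0.52, Plin3 24.8% ± 2.36 and Plin4/Plin5 65.2% ± 1.98. The mean Plin2 shares of the tissues, 9.83% and 9.86%, were closer than their SDs, and in ventricles Plin3 and the joint entry made up nearly all of the rest.

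MED13cTg ventricles had a similar makeup, with Plin4/Plin5 at 66.4% ± 1.60, Plin3 at 22.4% ± 1.11, Plin2 at 11.1% ± 2.59 and Plin1 at 0.168% ± 0.131. In MED13cTg EWAT the makeup differed by library. Replicate 3 was near WT, with 26.3% Plin1, 12.4% Plin2, 12.4% Plin3 and 48.8% Plin4/Plin5. In replicate 2 Plin1 was 35.6% and Plin3 1.92%. In replicate 1 Plin2 led with 40.1%, Plin3 held 23.0% and Plin1 10.99%, in a summed perilipin level of 63.6 FPKM against 315 to 565 FPKM in WT.

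**Figure D5:**
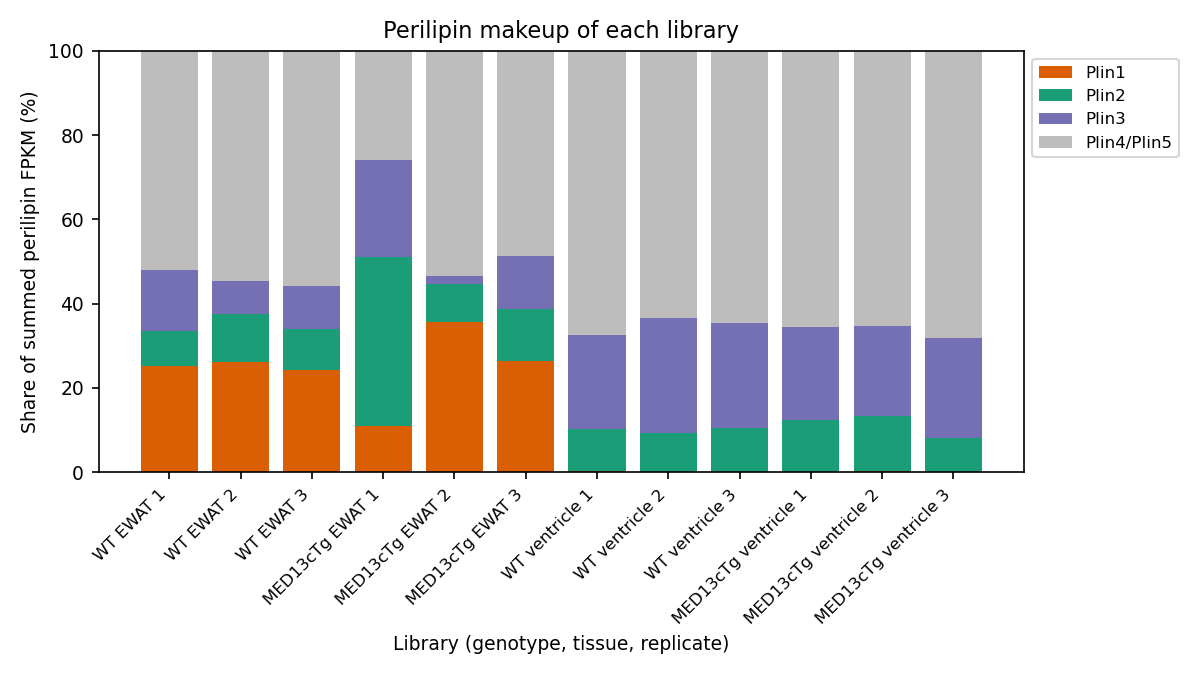
Share of each perilipin in the summed perilipin FPKM (y axis, percent) of each of the 12 libraries (x axis; Plin4/Plin5 is a joint entry). Plin1 makes up 24.2 to 26.2% in WT EWAT and at most 0.315% in any ventricle library, and MED13cTg EWAT replicate 1 stands apart with 40.1% Plin2.

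The order of the members also differed between tissues, where the WT EWAT libraries again stand for fat mixed with epididymis. In WT EWAT the mean levels ran from Cidec (599.5 FPKM) through Lipe, Pnpla2, Plin4/Plin5, G0s2, Mgll and Plin1 to Abhd5 and Plin2 (49.6 and 45.2 FPKM). The WT ranges of neighbours overlapped at every step but that from Plin1 to Abhd5, although Cidec was above Lipe and Lipe above Pnpla2 in each of the 3 mice. In WT ventricles the order was Plin4/Plin5 (323 FPKM), Pnpla2, G0s2, Mgll, Lipe, Plin2, Abhd5, Cidec and Plin1 (0.586 FPKM). There the ranges were apart at every step except G0s2 with Mgll and Lipe with Plin2. Lipe stood at 1.66 ± 0.25 times the level of Pnpla2 in WT EWAT and at 0.246 ± 0.052 times in WT ventricles (SD, n = 3). How fragments were assigned to Lipe is uncertain, because its interval carried 4 other entries.

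Other genes of droplet and triglyceride metabolism were taken from 6 lists: droplet proteins, lipolytic signalling, triglyceride synthesis, other lipases, handling of the products and transcription factors. In EWAT 0 of 72 list entries tested passed the test in either direction and 2, both lower in MED13cTg, had an unadjusted p under 0.05, against 0.14% higher and 1.11% lower over all entries tested. The median log2 difference of the lists was 0.04. In ventricles 0 of 64 passed and 4 had an unadjusted p under 0.05, 1 higher and 3 lower, against 1.69% higher and 3.03% lower over all, a number near that background, and the median was -0.04. In EWAT the list medians ran from -0.51 for the other lipases (5 of 12 above 0) to 0.50 for triglyceride synthesis (9 of 12). In ventricles they ran from -0.17 for triglyceride synthesis (1 of 11) to 0.115 for handling of the products (5 of 6). The median of all entries tested was 0.01 in EWAT and -0.01 in ventricles, and the share of all entries above 0 was not counted. Of the 15 genes named from these lists, MED13cTg replicate 2 was highest in 11 in EWAT, as in 26.2% of all entries tested.

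Dgat2, which makes the triglyceride that the lipases break down, was 96.3, 239 and 174 FPKM in WT EWAT and 113, 682 and 155 FPKM in MED13cTg EWAT. Dgat1, the other enzyme of that step, was 142, 220 and 155 FPKM and 85.2, 595 and 165 FPKM. Bscl2 (seipin), which shapes new droplets, was 145, 270 and 224 FPKM and 212, 615 and 176 FPKM. In these 3 genes too, replicate 2 was the high library. The fatty acid carrier Fabp4 was 8454, 23380 and 15510 FPKM in WT mice, against 726, 48370 and 11970 in MED13cTg mice, and the nuclear receptor Pparg was 50.3, 103 and 83.3 FPKM and 7.09, 444 and 77.9 FPKM. Both followed the layout of Plin1, with replicate 1 lowest.

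Upstream of the lipases, Adrb3, the β-adrenergic receptor of rodent fat cells, was 71.8, 47.9 and 55.6 FPKM in WT mice, against 6.78, 381 and 33.2 in MED13cTg mice. Pde3b, which degrades cyclic AMP under insulin, was 28.1, 56.3 and 37.2 FPKM and 26.2, 152 and 33.7 FPKM, and Prkar2b, a regulatory subunit of protein kinase A, was 47.4, 120 and 77.6 FPKM and 10.8, 263 and 63.2 FPKM. None of the 3 passed the test. Some genes were instead above all WT libraries in replicate 1, as Abhd5 was: Aqp7, the glycerol channel, was 11.97 to 30.6 FPKM in WT mice, against 52.3, 96.7 and 15.4 in MED13cTg mice, Hilpda, another inhibitor of ATGL, was 8.64 to 10.7 and 39.2, 20.1 and 7.87 FPKM, and Fabp3, the muscle fatty acid carrier, was 3.58 to 5.41 and 185, 6.78 and 3.86 FPKM. Cidea was 2.10 to 5.51 FPKM in WT mice, against 8.997, 8.94 and 2.39 in MED13cTg mice. Adrb1 was 0.647 to 0.831 and 2.20, 2.51 and 0.596 FPKM, and Ppara was 1.29 to 1.48 and 0.500, 5.08 and 1.38 FPKM. Plin3 in EWAT was below all WT libraries in each MED13cTg library, 44.3 to 47.5 against 14.6, 41.8 and 41.1 FPKM, with a log2 difference of -0.62 (SE 0.44, adjusted p = 0.738).

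In ventricles 0 of the 14 named genes tested passed the test. Fabp3 was above WT in all 3 MED13cTg libraries, at 10610, 12680 and 10530 FPKM against 8888, 8932 and 10330 FPKM, and did not pass the test (log2 difference 0.26, SE 0.19, adjusted p = 0.966). Ppara, the receptor that drives fatty acid oxidation genes in heart, was 13.6, 19.1 and 18.0 FPKM in WT mice, against 11.1, 6.45 and 16.2 in MED13cTg mice (log2 difference -0.62, SE 0.30, adjusted p = 0.966), lowest in the library with the most atrial transcripts. Plin3 was 100.3, 139.9 and 130.8 FPKM and 82.8, 84.1 and 139.0 FPKM. Like Pnpla2, Abhd5 and Plin4/Plin5, it was higher throughout the library cluster that held WT replicates 2 and 3. The share of all entries split in this way was not counted, so it is not read as a trait of these genes. The log2 differences of Plin3 between genotypes were 0.04 within that cluster and -0.26 within the other. For the other named genes the ratio of MED13cTg to WT means lay between 0.759 (Adrb3, at 0.102 to 0.300 FPKM) and 1.13 (Bscl2), with Cidea at 1.11, Aqp7 at 1.06, Fabp4 at 1.05, Pparg at 1.09, Hilpda at 1.03, Adrb1 and Pde3b at 1.01, Prkar2b at 0.925, Dgat2 at 0.889 and Dgat1 at 0.871.

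The genes whose log2 levels most resembled Plin1 over the 6 EWAT libraries were Cav2, a caveolar protein (Pearson's r 0.9998), Parp9 (0.9997), Tor3a (0.9994), Ccdc90a (0.9994) and Ywhab (0.9993). In all, 316 entries had r above 0.99, and these points share the wide span between MED13cTg replicates 1 and 2. Among the members r with Plin1 was 0.997 for G0s2 and for Plin4/Plin5, 0.992 for Lipe, 0.99 for Mgll and 0.984 for Cidec. It was 0.885 for Pnpla2, 0.859 for Plin2 and -0.00038 for Abhd5. In ventricles, the genes most like Plin4/Plin5 over the 6 libraries were L3mbtl2 (0.997), Mpp2 (0.993), Evc2 (0.982), P2rx5 (0.981) and Fam193a (0.976), and these points share the library clusters.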

How the data were processed

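The 12 libraries cover EWAT and ventricles of either genotype, 3 mice per group. The authors aligned reads with TopHat, to mm9 per the submitters' processing notes, and estimated expression with Cufflinks at default settings; versions are not given in the sources used here. They deposited FPKM values, 1 table per tissue. Their means and folds, and 1 unnamed column of values, were not used. Labels give 6 weeks of age and the paper a wider range.

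Sequencing depth is unknown. Ratios of values under 0.15 FPKM to WT replicate 1 had no sharp mode (at most 5.07% of genes shared one), so relative depth was not read. Of the entries of each table, 341 join several symbols.

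Here, entries whose mean reached 1 FPKM entered limma 3.58.1 (R 4.3.3) as log2(FPKM + 1) values (lmFit, eBayes with trend, Benjamini-Hochberg over all entries tested, threshold 0.05), each tissue alone, with a 4-group fit for the tissue difference. Fold changes on this scale understate those of low genes. Where several entries carried a symbol, that with the highest mean was used. Other values came from Python 3.11.15, numpy 2.4.6, pandas 2.3.3 and matplotlib 3.10.9. The members, lists and alternatives were chosen with earlier results of these data known. Named were the 10 members, 15 fixed genes of the pathway lists with any other list gene past the threshold, Med13, and the 5 genes most correlated with Plin1 in EWAT and with Plin4/Plin5 in ventricles.

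The fits were tested on simulated data made with the spread among WT libraries, which leaves out the wider spread of the MED13cTg EWAT libraries. Same-numbered libraries come from different mice. Their deviations from group means correlated by 0.347, 0.304 and 0.144 in EWAT, all over 0.1, and by 0.0855, -0.192 and 0.140 in ventricles; the highest correlation between differently numbered libraries was 0.168 in EWAT and 0.188 in ventricles. With the replicate block 0 members were called in EWAT, as without it.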

Additional observations from a re-analysis of the deposited data

How the results depend on the processing

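No member was called under any of 16 alternatives in EWAT or 16 in ventricles. In the tissue difference 1 of 18 alternatives called a member, Abhd5 without MED13cTg EWAT replicate 3 (1.96, adjusted p = 0.016; range over the alternatives 0.016 to 0.939). Directions were less stable. The array weights stopped before the convergence tolerance in EWAT and for the tissue difference, so their values there are less certain. The cause of each shift below was not tested, and values are log2 differences unless they are counts. Depth is unknown, and the standard errors of the members were 0.60 to 1.61 in EWAT, so that a difference of 1 log2 unit there was under 2 standard errors.

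In EWAT, the count of 2 entries called lower became 0 with no filter on expression, with array weights, with the replicate block and when centred on adipocyte markers. Of the 9 members, 3 were above 0, against 5 with quantile normalization (Lipe 0.077, Mgll 0.0012), 8 with array weights (Lipe 0.32, Mgll 0.28, G0s2 0.26, Plin1 0.45, Plin4/Plin5 0.10) and 7 when centred on adipocyte markers (Lipe 0.27, Mgll 0.39, G0s2 0.021, Plin1 0.0059). Median-of-ratios scaling turned Mgll to 0.013. Without MED13cTg replicates 1 and 2 together, chosen after seeing the data, 17 entries were called higher and 0 members were above 0 (Pnpla2 -0.26, Abhd5 -0.22, Plin2 -0.049); the lone MED13cTg library is then assumed to vary like WT. Leaving out each library in turn gave 0 to 2 entries called higher, 0 to 4 lower and 1 to 9 members above 0. The ranges were -0.64 to 0.87 for Pnpla2, -1.30 to 0.91 for Lipe, -0.87 to 0.72 for Mgll, 0.71 to 1.73 for Abhd5, -1.77 to 0.87 for G0s2, -2.06 to 1.24 for Plin1, -0.38 to 1.07 for Plin2, -2.15 to 0.87 for Plin4/Plin5 and -2.23 to 0.78 for Cidec; the lowest value came without MED13cTg replicate 2 and the highest without replicate 1, except the highest of Abhd5, which came without replicate 3.

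In ventricles, 3 entries were called higher and 4 lower. The lower count was 1 with no filter, with a mean of at least 5 FPKM and with the replicate block, and 2 when centred on cardiomyocyte markers. Array weights gave 7 and 8. Members above 0 numbered 2, and 1 with the filter at 5 FPKM, which dropped Cidec, or with cardiomyocyte centring (Cidec -0.034). Quantile normalization gave Mgll 0.031, Plin2 0.028 and Cidec -0.013, and the cluster covariate Plin2 0.0065, Plin4/Plin5 0.00074 and Cidec -0.084. Single libraries left out gave 3 to 6 called higher, 0 to 4 lower, 1 to 3 members above 0, -0.13 to 0.055 for Mgll, -0.077 to 0.051 for Plin2 and -0.21 to 0.13 for Cidec. Ventricle numbers do not pair the mice, and the block changed no member call.

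For the tissue difference, 0 entries were called higher and 3 lower, with array weights 11 and 16, and with libraries left out 0 to 143 and 3 to 500. Members above 0 ran from 1 to 8 and members called from 0 to 1. Median-of-ratios scaling gave Mgll 0.047 and array weights Plin2 -0.029; quantile normalization moved the median of all entries to -0.12. With libraries left out the ranges were -0.27 to 1.24 for Pnpla2, -1.12 to 1.09 for Lipe, -0.83 to 0.76 for Mgll, 0.94 to 1.96 for Abhd5, -1.90 to 0.74 for G0s2, -0.36 to 1.09 for Plin2, -2.02 to 1.01 for Plin4/Plin5 and -2.25 to 0.76 for Cidec.

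Without Plin3 in the sum, Plin1 made up 28.2% and Plin4/Plin5 60.8% in WT EWAT, Plin2 13.1% and Plin4/Plin5 86.7% in WT ventricles, and 14.3% and 85.5% in MED13cTg ventricles. The shares were given as a description and were not compared by a test, paired or unpaired.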

Other observations

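A few enzymes and regulators of the pathway lists had an unadjusted limma p under 0.05 in 1 tissue without passing the adjusted threshold, and they were picked out after their values were seen. They number 4 of 64 list entries tested in ventricles, where 1.69% of all entries were higher and 3.03% lower at that p, and 2 of 72 in EWAT, where 0.14% were higher and 1.11% lower. In ventricles, Agpat2, which makes phosphatidic acid on the way to triglyceride, was 88.6, 68.4 and 70.4 FPKM in WT mice, against 139, 134 and 94.9 in MED13cTg mice, above WT in all 3 libraries. Lpin1, a phosphatidic acid phosphatase of the next step, was 38.7, 45.3 and 40.0 FPKM in WT mice, against 28.0, 25.1 and 33.1 in MED13cTg mice, below WT in all 3. The log2 differences were 0.68 (SE 0.19) for Agpat2 and -0.52 (SE 0.13) for Lpin1.

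Ppargc1a, a coactivator of mitochondrial genes, was 63.3, 55.5 and 44.5 FPKM in WT ventricles and 33.0, 30.6 and 47.5 FPKM in MED13cTg, and Adora1, an adenosine receptor that restrains lipolysis in fat cells, was 6.14, 8.59 and 8.30 FPKM and 4.67, 3.71 and 6.77 FPKM. The genotypes overlapped for both. In EWAT, Lpin3 was 11.6 to 13.5 FPKM in WT mice, against 4.43, 5.26 and 10.6 in MED13cTg mice, and Abhd12, a monoacylglycerol and lysophosphatidylserine lipase, was 140.0 to 171.7 FPKM and 68.1, 61.7 and 138.2 FPKM. Both were well under WT in MED13cTg replicates 1 and 2, the libraries low in epididymis transcripts, and close to WT in replicate 3. The part of tissue makeup in these values was not tested.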
